A study of Mus musculus with 6 samples.

Results

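The T helper 1 (Th1) program was followed through 10 genes in regulatory T cells, which are CD4 T cells that express Foxp3 and restrain immune responses. The genes were chosen by symbol, with earlier results of these data known. They were the receptor subunit Il12rb2, the transcription factors Stat4, Tbx21, Eomes and Runx3 and the cytokine Ifng. The others were the chemokines Ccl3, Ccl4 and Ccl5 and the chemokine receptor Cxcr3. All 10 of 10 symbols matched an Ensembl gene ID, among 47069 such genes shared by both deposited tables. RNA was sequenced from 6 mouse libraries of sorted CD4+GFP+CD62Lhigh cells of lymph node and spleen. All animals carried a Foxp3-driven Cre recombinase (Foxp3Cre), which acts in Foxp3-expressing cells, and the cells were activated with Dynabeads in culture. Libraries labelled cKO came from Foxp3CreNoc4lfl/fl mice and libraries labelled Het from Foxp3CreNoc4l+/fl mice, so the Het cells also carried a floxed allele and Cre. At 72 h of activation there were cKO replicates 2 and 4 and Het replicates 1 and 3, and at 48 h cKO replicate 2 and Het replicate 1. The genotype field gives the cKO as fl/fl, while the protocol text writes +/fl for both groups. Nothing in the labels says whether each library came from its own animal or from a pool, so a p-value here reflects only how these libraries spread.

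Th1 differentiation is driven by interleukin 12 and interferon gamma. Interleukin 12 signals through its receptor to STAT4, interferon gamma through a receptor of its own, and both feed into T-bet, the product of Tbx21. T-bet, with Runx3 and the related Eomes, acts on Ifng and on the genes of chemokines and of the homing receptor CXCR3. Regulatory T cells can take up T-bet and CXCR3 while keeping Foxp3, a state known from type 1 inflammation.

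Levels were deposited as FPKM, fragments scaled to gene length and to sequencing depth, and replicates 1 and 2 of both times stood in the first table and replicates 3 and 4 in the second. Estimated depth was 16.5 to 28.8 M fragments per library, with M for mega. Noc4l, the targeted gene, stood higher under the cKO label in all 3 pairs, with 81.7 and 58.1 FPKM in cKO 2 and cKO 4 at 72 h against 48.8 and 40.8 FPKM in Het 1 and Het 3. The targeted gene was thus not lower under the cKO label. A level over the whole gene does not show which exons were read, so it cannot settle the labels. Every direction below is that of the libraries as labelled. Foxp3 was present throughout, at 173 and 336 FPKM in cKO 2 and cKO 4 against 147 and 278 FPKM in Het 1 and Het 3 at 72 h. The 7 regulatory T cell markers summed to between 2851 and 3603 FPKM over the 6 libraries.

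Other cell markers were uneven. Of the 9 myeloid markers, none was at 0 in cKO 2 at either time, where they summed to 248 FPKM at 72 h and 308 FPKM at 48 h, and the other 4 libraries held between 0.434 and 1.18 FPKM. S100a8 and S100a9 were both at 0 in cKO 4 and Het 3. The 7 natural killer (NK) cell markers summed to 56.2 and 4.94 FPKM in cKO 2 and cKO 4 at 72 h, against 11.8 and 1.83 FPKM in Het 1 and Het 3, and to 19.9 FPKM in cKO 2 against 7.23 FPKM in Het 1 at 48 h. Klrb1c was at 0 in cKO 4, and Klrd1 and Klre1 were at 0 in Het 3. Both CD8 markers together stood at 58.2 and 6.71 FPKM in cKO 2 and cKO 4 against 31.8 and 5.70 FPKM in Het 1 and Het 3 at 72 h, and at 6.92 FPKM in cKO 2 against 5.25 FPKM in Het 1 at 48 h. These markers differed, as the level in cKO 4 was 2.22 times that in Het 3 for Cd8a and 0.953 times for Cd8b1. The 4 B cell markers summed to 70.5 FPKM in cKO 2 at 72 h and at most 16.8 FPKM elsewhere. CD8 T cells and NK cells make Eomes, Ifng, Ccl3, Ccl4 and Ccl5 as well, so each pair of libraries is given on its own below. The CD8 sums of cKO 4 and Het 3 were close to those at 48 h, and their NK sum was higher in cKO 4. B cell markers summed to 3.88 FPKM in cKO 4 and 3.19 FPKM in Het 3, against 5.08 FPKM in Het 1 at 72 h. The part of other cells in the values of this pair was not tested.

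Of 3 markers of conventional CD4 T cells, which also make Ifng, only Cd40lg had enough signal to be tested. Cd40lg was higher in the library labelled cKO of both 72 h pairs, and it made up most of the sums below. At 72 h Cd40lg averaged 9.95 FPKM in cKO and 2.59 FPKM in Het libraries. Il2 averaged 0.403 and 0.0627 FPKM in these groups, and Il21 averaged 0.317 and 0.0329 FPKM. Cd40lg, Il2 and Il21 summed to 13.7 and 7.63 FPKM in cKO 2 and cKO 4 against 2.83 and 2.54 FPKM in Het 1 and Het 3 at 72 h, and to 9.88 FPKM in cKO 2 against 11.8 FPKM in Het 1 at 48 h. Il2 was at 0 in cKO 4 and Het 3, and Il21 was at 0 in cKO 2 at 48 h. The 5 cytotoxic genes Gzma, Gzmb, Gzmk, Prf1 and Nkg7 summed to 1042 and 346 FPKM in cKO 2 and cKO 4 against 429 and 195 FPKM in Het 1 and Het 3 at 72 h, and to 57.9 FPKM in cKO 2 against 47.7 FPKM in Het 1 at 48 h. The part of these cells in the Th1 values was not tested.

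**Figure D1:**
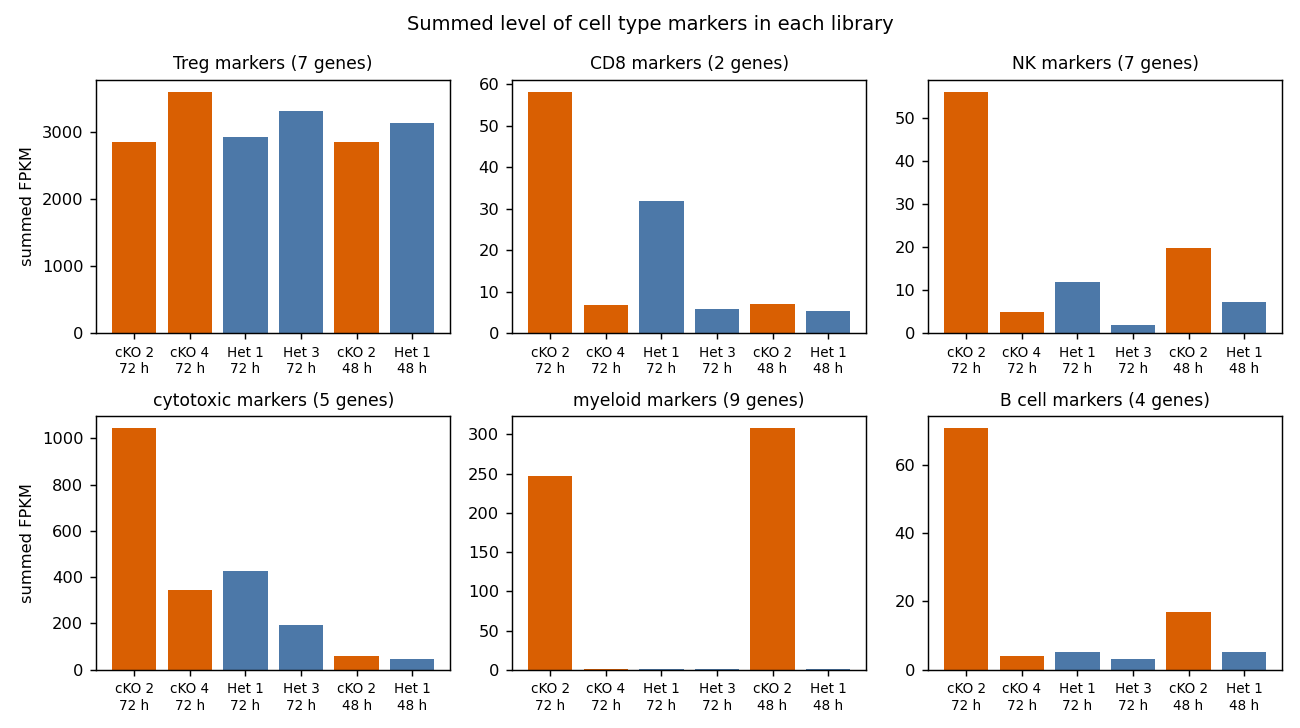
Summed FPKM of 6 of the marker lists (vertical axis, each panel with its own scale) in the 6 libraries, with libraries labelled cKO in orange and Het in blue. Myeloid, NK and B cell markers peak in cKO 2, while the regulatory T cell markers lie between 2851 and 3603 FPKM in all 6 libraries.

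Promoter windows were available from RefSeq (build GRCm38.p6) for 8 of the 10 genes, not for Ccl4 and Ccl5. The 250 bases before the gene start are shown for the 5 of these genes whose level was at least 2-fold higher, as log2(FPKM + 1), in the library labelled cKO of both 72 h pairs. Capitals mark matches to the motifs described after the sequences.
Il12rb2 (chr6:67376189-67376438, - strand): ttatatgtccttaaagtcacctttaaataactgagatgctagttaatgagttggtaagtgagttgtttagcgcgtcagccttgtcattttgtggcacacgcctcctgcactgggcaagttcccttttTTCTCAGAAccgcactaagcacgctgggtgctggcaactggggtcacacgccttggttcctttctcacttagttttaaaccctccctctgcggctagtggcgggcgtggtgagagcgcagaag
Tbx21 (chr11:97115332-97115581, - strand): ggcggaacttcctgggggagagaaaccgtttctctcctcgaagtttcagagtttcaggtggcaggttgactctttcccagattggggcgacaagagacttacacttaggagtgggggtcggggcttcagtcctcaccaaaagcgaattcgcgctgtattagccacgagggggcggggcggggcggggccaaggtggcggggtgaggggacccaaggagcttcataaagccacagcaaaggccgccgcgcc
Eomes (chr9:118477939-118478188, + strand): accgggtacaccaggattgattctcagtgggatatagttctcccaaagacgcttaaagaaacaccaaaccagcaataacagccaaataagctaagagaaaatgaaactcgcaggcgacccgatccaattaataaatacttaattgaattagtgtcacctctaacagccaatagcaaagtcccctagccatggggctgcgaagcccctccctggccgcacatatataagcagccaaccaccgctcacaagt
Ifng (chr10:118440796-118441045, + strand): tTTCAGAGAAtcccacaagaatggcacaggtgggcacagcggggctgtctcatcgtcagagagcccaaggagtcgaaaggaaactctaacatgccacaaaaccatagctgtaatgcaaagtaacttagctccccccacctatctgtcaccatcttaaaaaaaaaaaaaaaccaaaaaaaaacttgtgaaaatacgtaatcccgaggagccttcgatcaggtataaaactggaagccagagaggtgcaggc
Ccl3 (chr11:83649379-83649628, - strand): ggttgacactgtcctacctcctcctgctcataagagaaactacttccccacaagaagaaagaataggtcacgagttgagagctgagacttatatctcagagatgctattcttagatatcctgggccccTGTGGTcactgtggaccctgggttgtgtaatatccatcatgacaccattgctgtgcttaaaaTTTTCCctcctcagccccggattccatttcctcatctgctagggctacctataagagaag

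In all, 6 motifs were searched on both strands of these windows, and no matches overlapped each other in the windows of the Th1 genes. A STAT site, TTCNNNGAA, was found 123 to 115 bases before the start of Il12rb2 and 249 to 241 bases before that of Ifng, and 7.02% of all 32851 RefSeq windows hold it. The RUNX letters TGTGGT occurred in Ccl3, 122 to 117 bases before the start, in Cxcr3 and in 1 of the windows of Runx3 itself, against 14.0% of all windows. The NFAT letters GGAAAA occurred in Ccl3, on the reverse strand 60 to 55 bases before the start, and in 1 window of Stat4, against 20.4% of all windows. The T-box letters TCACACC, the AP-1 letters TGANTCA and the kappaB motif were in 0 of the 10 windows of the Th1 genes (8 genes, with an alternative start each for Stat4 and Runx3). These letters occur in 3.33%, 6.75% and 1.21% of all windows. The windows of Tbx21 and Eomes held none of the 6 motifs.

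At 72 h, levels were compared as log2(FPKM + 1) within each pair. Tbx21, Ifng, Ccl3, Ccl4, Eomes and Il12rb2 were each at least 2-fold higher in the library labelled cKO of both pairs. That was 6 of 10 genes, against 1.67% of the 12488 genes tested, and 0 of 10 were lower by as much, against 0.785%. Since the 10 genes were chosen with earlier results of these data known, these shares give the set no independent support. Cxcr3 was higher in both pairs, Runx3 was slightly higher, Ccl5 was nearly level and Stat4 was lower. In the fit, 8 of the 10 lay above 0 and 2 below, against 61% and 39% of all genes. The median log2 fold change of the 10 genes was 1.69, against 0.08 over all genes tested. None of the 10 passed limma's adjusted p of 0.05, and neither did any other of the 12488 genes. At an unadjusted p under 0.05, 7 of the 10 were higher and 1 was lower, against 10.3% and 6.99% of all genes. The fit rests on 2 libraries per genotype with the table as a term, which leaves 1 residual degree of freedom. In these bulk libraries, more cells that express a gene and more RNA per cell cannot be told apart.

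**Figure D2:**
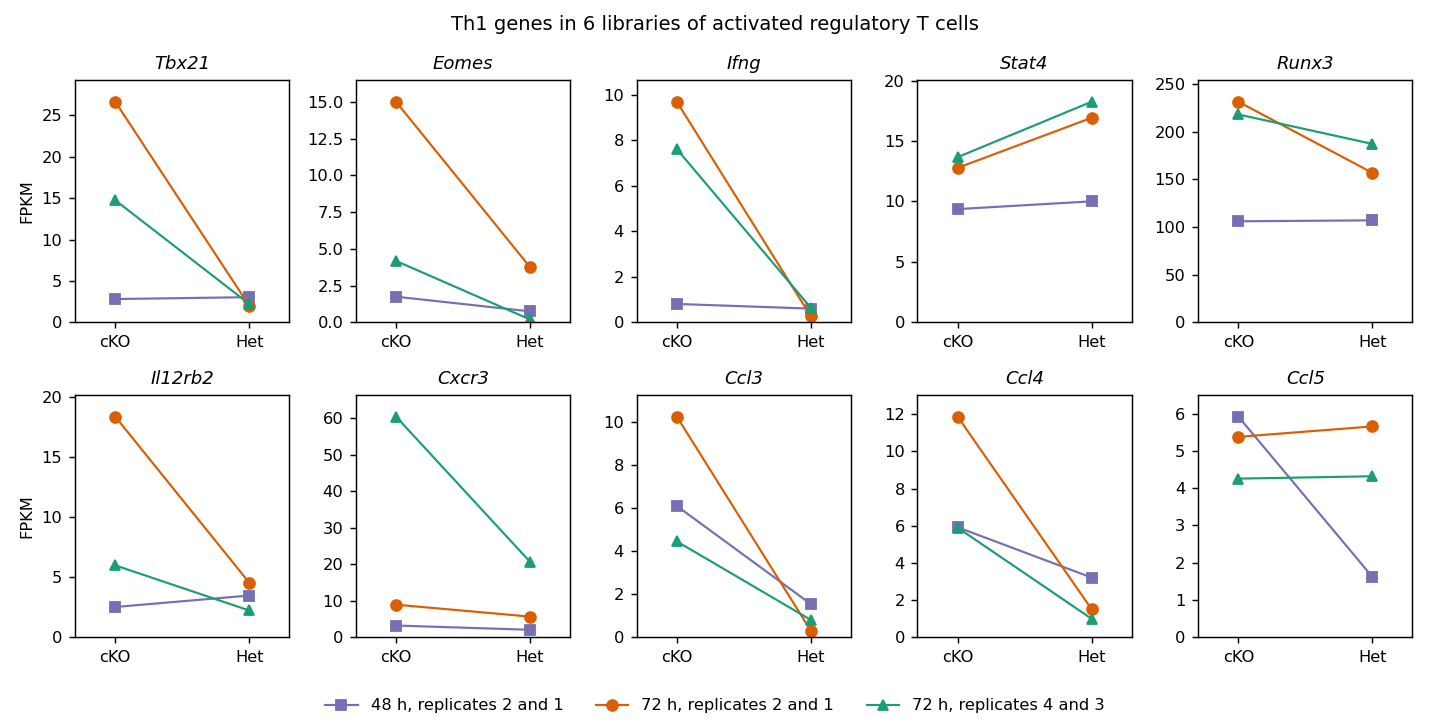
FPKM (vertical axis, from 0, own scale per panel) of the 10 Th1 genes in the library labelled cKO (left) and Het (right), with a line for each pair: squares 48 h, circles 72 h replicates 2 and 1, triangles 72 h replicates 4 and 3. Tbx21, Ifng, Il12rb2, Ccl3, Ccl4 and Eomes lie higher in the cKO library of both 72 h pairs, and Ccl5 differs mainly at 48 h.

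Il12rb2 (ENSMUSG00000018341), the signalling subunit of the interleukin 12 receptor that sets whether a T cell can respond to it, was at 18.4 and 5.99 FPKM in cKO 2 and cKO 4 at 72 h, against 4.56 and 2.23 FPKM in Het 1 and Het 3. At 48 h it was at 2.52 FPKM in cKO 2 and 3.48 FPKM in Het 1. Both 72 h libraries labelled cKO lay above both Het libraries, with cKO 4 closest to Het 1, while at 48 h the order was the other way. For genotype at 72 h, limma gave a log2 fold change of 1.46 ± 0.23 (SE) with an adjusted p of 0.139. Serbp1 lies on the opposite strand and overlaps an exon of Il12rb2, and without a stated strand setting their reads cannot be told apart. At 72 h Serbp1 was at 448 and 255 FPKM in cKO 2 and cKO 4, against 279 and 244 FPKM in Het 1 and Het 3. At 48 h Serbp1 was at 442 FPKM in cKO 2 and 448 FPKM in Het 1. The part of Serbp1 reads in the Il12rb2 values was not tested.

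Stat4 (ENSMUSG00000062939), the transcription factor activated by the interleukin 12 receptor, was the only member lower in the libraries labelled cKO in all 3 pairs. It stood at 12.8 and 13.7 FPKM in cKO 2 and cKO 4, against 16.9 and 18.2 FPKM in Het 1 and Het 3 at 72 h, and at 9.37 FPKM in cKO 2 against 10.0 FPKM in Het 1 at 48 h. The 72 h groups did not overlap, and both pairs gave nearly the same difference, -0.38 and -0.39 on the log2(FPKM + 1) scale. The fold change in the fit was -0.39 ± 0.13 (log2, SE, limma adjusted p = 0.273).

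Tbx21 (ENSMUSG00000001444), which encodes T-bet, was at 26.7 and 14.8 FPKM in cKO 2 and cKO 4 at 72 h, against 2.04 and 2.23 FPKM in Het 1 and Het 3. Its level in cKO 2 was 13.1 times that in Het 1, and in cKO 4 it was 6.61 times that in Het 3. At 48 h cKO 2 held 2.82 FPKM and Het 1 held 3.04 FPKM, so both 72 h libraries labelled cKO stood apart from the other 4 libraries, which spanned 2.04 to 3.04 FPKM. The limma fit put the 72 h log2 fold change at 2.74 ± 0.27 (SE) with an adjusted p of 0.106.

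Eomes (ENSMUSG00000032446), a T-box factor related to T-bet and prominent in CD8 T and NK cells, was at 15.0 and 4.18 FPKM in cKO 2 and cKO 4, against 3.76 and 0.199 FPKM in Het 1 and Het 3 at 72 h. At 48 h it was at 1.75 FPKM in cKO 2 and 0.749 FPKM in Het 1. The library labelled cKO was higher in each pair, but cKO 4 was close to Het 1 of the other table, and in both genotypes the level was higher in the first table, as were the CD8 and NK cell markers. In the 72 h fit Eomes stood at 1.93 ± 0.20 (log2, SE, limma adjusted p = 0.106). The log2 difference was 2.11 in the pair of cKO 4 and Het 3 and 1.75 in the pair of cKO 2 and Het 1. Eomes in Het 3 rested on an estimated 13 fragments, with an exact 95% Poisson interval of 0.106 to 0.340 FPKM for counting error only. Summed NK cell markers were at 4.94 and 1.83 FPKM in cKO 4 and Het 3 and at 56.2 and 11.8 FPKM in cKO 2 and Het 1. The part of NK and CD8 T cells in the Eomes values was not tested.

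Runx3 (ENSMUSG00000070691), which works with T-bet on Ifng and silences Il4 in Th1 cells, was by far the most abundant of the 10 per length. It was at 232 and 218 FPKM in cKO 2 and cKO 4 against 157 and 187 FPKM in Het 1 and Het 3 at 72 h, and at 106 FPKM in cKO 2 against 107 FPKM in Het 1 at 48 h. The 72 h groups did not overlap, and the log2 difference was 0.56 between cKO 2 and Het 1 and 0.22 between cKO 4 and Het 3. The fit gave 0.39 ± 0.15 (log2, SE, limma adjusted p = 0.304).

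Ifng (ENSMUSG00000055170), the cytokine of Th1 cells, was at 9.68 and 7.60 FPKM in cKO 2 and cKO 4 at 72 h, against 0.277 and 0.647 FPKM in Het 1 and Het 3. At 48 h cKO 2 held 0.809 FPKM and Het 1 held 0.605 FPKM. Both 72 h libraries labelled cKO were above 7 FPKM and the other 4 libraries below 1 FPKM. Het 1 at 72 h rested on an estimated 7 fragments, with an exact 95% Poisson interval of 0.111 to 0.571 FPKM that covers counting error only. Ifng stood at 2.72 ± 0.26 in the 72 h fit (log2, SE, limma adjusted p = 0.106). In FPKM the level in cKO 2 was 34.9 times that in Het 1 for Ifng and 13.1 times for Tbx21, and the level in cKO 4 was 11.7 times that in Het 3 for Ifng and 6.61 times for Tbx21. Which gene had the larger fold change depended on the pseudocount, with 4.03 for Ifng and 3.16 for Tbx21 at a pseudocount of 0.1, and 1.32 for Ifng and 1.81 for Tbx21 at a pseudocount of 5 (log2, 72 h).

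**Figure D3:**
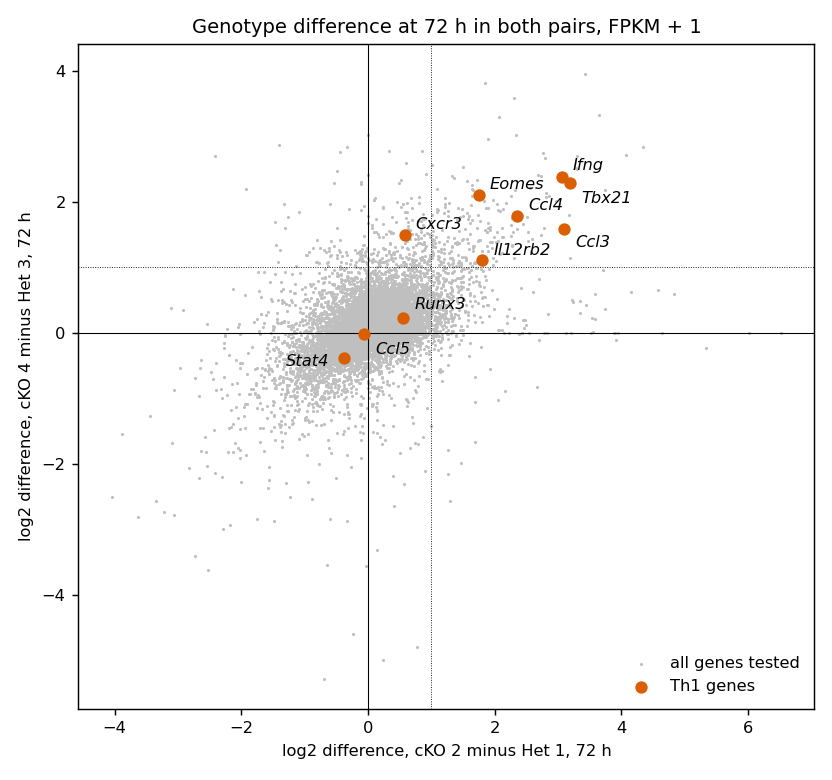
Log2 difference of FPKM + 1 between the library labelled cKO and Het at 72 h, for replicates 2 and 1 (horizontal axis) and replicates 4 and 3 (vertical axis), over 12488 tested genes in grey with the Th1 genes in orange. Dotted lines mark a difference of 1, and 6 of the 10 Th1 genes lie beyond both lines.

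Ccl3 (ENSMUSG00000000982) and Ccl4 (ENSMUSG00000018930), neighbouring chemokine genes whose products attract T cells and macrophages, differed in the same direction in each pair. Ccl3 was at 10.2 and 4.44 FPKM in cKO 2 and cKO 4, against 0.312 and 0.805 FPKM in Het 1 and Het 3 at 72 h, and at 6.08 FPKM in cKO 2 against 1.54 FPKM in Het 1 at 48 h. All 3 libraries labelled cKO lay above all 3 Het libraries. Its level in Het 1 at 72 h rested on 5 estimated fragments, with an exact 95% Poisson interval of 0.101 to 0.728 FPKM. Ccl3 stood at 2.34 ± 0.43 in the 72 h fit (log2, SE, limma adjusted p = 0.158), and the pairs differed, at 3.10 for cKO 2 and Het 1 and 1.59 for cKO 4 and Het 3.

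Ccl4 was at 11.9 and 5.89 FPKM in cKO 2 and cKO 4, against 1.52 and 0.997 FPKM in Het 1 and Het 3 at 72 h. At 48 h it was at 5.92 FPKM in cKO 2 and 3.21 FPKM in Het 1. Here too all libraries labelled cKO lay above all Het libraries, and the lowest of them, cKO 4 at 72 h, was nearly level with cKO 2 at 48 h. In the 72 h fit Ccl4 stood at 2.07 ± 0.23 (log2, SE, limma adjusted p = 0.111). Myeloid cells also make both chemokines, and the myeloid markers, high in cKO 2, summed to 0.434 FPKM in cKO 4 and 0.744 FPKM in Het 3. Their part in the Ccl4 values was not tested.

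Ccl5 (ENSMUSG00000035042), a chemokine that is made late by effector T cells, did not share this pattern. It was at 5.38 and 4.25 FPKM in cKO 2 and cKO 4, against 5.65 and 4.32 FPKM in Het 1 and Het 3 at 72 h, where the groups overlapped. At 48 h it was at 5.92 FPKM in cKO 2 and 1.62 FPKM in Het 1, the lowest of the 6 libraries. The fold change at 72 h was -0.04 ± 0.16 (log2, SE, limma adjusted p = 0.912).

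Cxcr3 (ENSMUSG00000050232), the receptor that guides Th1 cells to interferon-induced chemokines, varied more at 72 h between the tables than between genotypes. It was at 8.93 and 60.5 FPKM in cKO 2 and cKO 4, against 5.66 and 20.7 FPKM in Het 1 and Het 3 at 72 h, and at 3.20 FPKM in cKO 2 against 2.05 FPKM in Het 1 at 48 h. The 72 h groups overlapped, since Het 3 exceeded cKO 2, while within each pair the library labelled cKO was higher. Cxcr3 stood at 1.04 ± 0.27 in the 72 h fit (log2, SE, limma adjusted p = 0.216), with 0.58 for cKO 2 and Het 1 and 1.5 for cKO 4 and Het 3. Of the 10 genes, Cxcr3 alone had its highest level in cKO 4, while 7 were highest in cKO 2 at 72 h.

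Over the 10 genes, the 72 h groups did not overlap for 7 higher genes and for 1 lower gene, against 24.9% and 13.8% of all genes tested. In the pair of cKO 4 and Het 3 alone, 7 of the 10 were at least 2-fold higher in the library labelled cKO on the log2(FPKM + 1) scale, against 3.88% of all genes. In the pair of cKO 2 and Het 1 it was 6 of the 10, against 4.8%. The median difference of the 10 genes was 1.78 in the pair of cKO 2 and Het 1 and 1.55 in the pair of cKO 4 and Het 3.

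**Figure D4:**
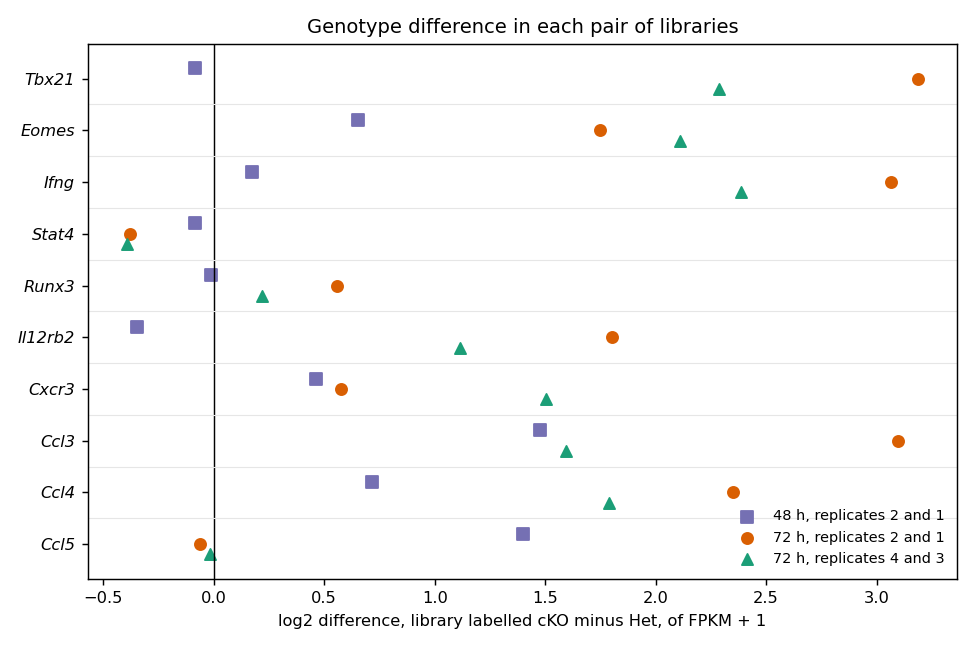
Log2 difference of FPKM + 1 between the library labelled cKO and Het (horizontal axis) for each Th1 gene (rows) in the 3 pairs of libraries. Differences at 72 h (circles and triangles) exceed 1 in both pairs for 6 genes, and at 48 h (squares) they exceed 1 for Ccl3 and Ccl5.

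At 48 h, with 1 library per genotype and no test, the chemokines and Eomes stood higher in cKO 2 than in Het 1. The log2 difference was 1.48 for Ccl3 and 1.40 for Ccl5, both higher in the library labelled cKO. These were 2 of 10 genes at least 2-fold higher on the log2(FPKM + 1) scale, against 1.11% of 12394 genes, and 0 of 10 were lower by as much, against 0.799%. With a pseudocount of 5, Ccl3 and Ccl5 were at 0.76 and 0.72 and no longer past 2-fold, and with a pseudocount of 0.1 Eomes was past it at 1.12. In FPKM, Eomes in cKO 2 was 2.33 times its level in Het 1, with exact 95% Poisson intervals of 1.43 to 2.11 FPKM in cKO 2 and 0.569 to 0.968 FPKM in Het 1. Ccl4 stood at 0.72, Eomes at 0.65 and Cxcr3 at 0.46, and Ifng, Tbx21, Stat4, Runx3 and Il12rb2 lay between -0.35 and 0.17. For Ccl5 the exact 95% Poisson intervals, for counting error only, were 4.69 to 7.36 FPKM in cKO 2 and 1.08 to 2.34 FPKM in Het 1. In this pair the myeloid markers summed to 308 FPKM in cKO 2 and 0.538 FPKM in Het 1, and their part in the chemokine values was not tested.

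In the fit of all 6 libraries, 9 of the 10 genes lay above 0 for cKO over Het and 1 below, against 58.9% and 41.1% of all genes, with a median log2 fold change of 1.18 against 0.05 over all genes. Neither a Th1 gene nor any other of 12394 genes passed limma's adjusted p of 0.05. Libraries with the same replicate number at 48 h and 72 h were counted as independent in this fit. If they share animals or preparations, its errors and p-values come out too small. At an unadjusted p under 0.05, 6 of the 10 were higher and 0 lower, against 8.04% and 5.28% of all genes. Ccl3 stood at 2.06 ± 0.36 (log2, SE, limma adjusted p = 0.343), Ccl4 at 1.62 ± 0.33 and Eomes at 1.5 ± 0.31. Ifng and Tbx21, whose 48 h differences were 0.17 and -0.08, had wider errors, at 1.87 ± 0.56 and 1.80 ± 0.61. Tbx21 was at 1.1 without cKO 2 or Het 1 of 72 h and at 2.74 without either 48 h library. Both genes were past an unadjusted p of 0.05 with all libraries and not when any single 72 h library was left out.

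Time was compared in the first table, which held both times. Between 48 h and 72 h, Tbx21 and Ifng moved apart between cKO 2 and Het 1. Tbx21 stood at 26.7 FPKM at 72 h against 2.82 FPKM at 48 h in cKO 2, and at 2.04 FPKM at 72 h against 3.04 FPKM at 48 h in Het 1. Ifng stood at 9.68 FPKM at 72 h against 0.809 FPKM at 48 h in cKO 2, and at 0.277 FPKM at 72 h against 0.605 FPKM at 48 h in Het 1. In Het 1 the exact 95% Poisson intervals of Ifng overlapped, at 0.111 to 0.571 FPKM at 72 h and 0.374 to 0.923 FPKM at 48 h. In cKO 2 and Het 1, counts past 2-fold differed too. Of the 10 genes, 6 were at least 2-fold higher at 72 h in cKO 2, on the log2(FPKM + 1) scale, and 3 were in Het 1, against 2.83% and 4.57% of all genes. Eomes and Cxcr3 were so in both, 2 of 10 against 0.863%, and 0 of 10 were lower by as much in either, against 0.831% in cKO 2 and 2.69% in Het 1.

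Eomes, Runx3, Cxcr3, Il12rb2 and Stat4 were higher at 72 h than at 48 h in both cKO 2 and Het 1. The libraries cKO 4 and Het 3 had no 48 h library in their own table to be compared with. In the additive fit with genotype and table, Eomes stood at 1.99 ± 0.38 (log2, SE, limma adjusted p = 0.271) and Cxcr3 at 1.18 ± 0.28 (limma adjusted p = 0.331). Runx3 stood at 0.83 ± 0.17 (limma adjusted p = 0.285) and Stat4 at 0.56 ± 0.15 (limma adjusted p = 0.369). No Th1 gene passed limma's adjusted p of 0.05 for time, and 3 of 12394 genes did, all higher at 72 h (0.0242%). These included Cd8a, of the CD8 T cell markers, and Gzmb, of the cytotoxic genes. Cd8a was at 39.0 FPKM at 72 h against 0.992 FPKM at 48 h in cKO 2, and at 20.3 FPKM at 72 h against 0.466 FPKM at 48 h in Het 1 (4.09 ± 0.20, log2, SE, limma adjusted p = 0.0186). The other CD8 marker, Cd8b1, changed less, at 1.33 ± 0.22 (log2, SE, limma adjusted p = 0.271). Its level at 72 h was 3.23 times that at 48 h in cKO 2 and 2.41 times in Het 1. Gzmb stood at 4.54 ± 0.29 (log2, SE, limma adjusted p = 0.0481). The NK cell markers summed to 56.2 FPKM at 72 h against 19.9 FPKM at 48 h in cKO 2, and to 11.8 FPKM at 72 h against 7.23 FPKM at 48 h in Het 1. The part of such cells in the time differences was not tested. At an unadjusted p under 0.05, 5 of the 10 were higher and 0 lower, against 6.45% and 4.63% of all genes. By sign alone it was 9 higher and 1 lower, against 50.3% and 49.7%.

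Ccl3 and Ccl4 were each higher at 72 h than at 48 h in cKO 2 and lower at 72 h in Het 1. Ccl3 was at 10.2 FPKM at 72 h and 6.08 FPKM at 48 h in cKO 2, and at 0.312 FPKM at 72 h and 1.54 FPKM at 48 h in Het 1. Ccl4 was at 11.9 FPKM at 72 h and 5.92 FPKM at 48 h in cKO 2, and at 1.52 FPKM at 72 h and 3.21 FPKM at 48 h in Het 1. Ccl5 was nearly level in cKO 2, with 5.38 FPKM at 72 h and 5.92 FPKM at 48 h, while Het 1 held 5.65 FPKM at 72 h and 1.62 FPKM at 48 h. At 48 h each genotype had 1 library, so a fit of the interaction of genotype and time holds no measured spread at 48 h. Its errors and p-values rest on how the 72 h pairs differ. Whether the genotype difference itself changed with time was estimated with this interaction term. It was 2.82 ± 0.48 for Tbx21 (log2, SE, limma adjusted p = 0.742), 2.55 ± 0.47 for Ifng (limma adjusted p = 0.744) and -1.44 ± 0.28 for Ccl5 (limma adjusted p = 0.744). None of 12394 genes passed limma's adjusted p of 0.05 for the interaction, and 5 of the 10 Th1 genes were higher and 1 lower at an unadjusted p under 0.05, against 3.43% and 2.28% of all genes. By sign alone 8 were positive and 2 negative, against 60% and 40%.

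Further genes of the pathway were taken from lists of known Th1 signalling and effector genes, and none of their genes passed limma's adjusted p of 0.05 at 72 h. Among signalling genes of interleukins 12, 18 and 27, 2 of 12 were higher and 4 lower at an unadjusted p under 0.05, against 10.3% and 6.99% of all genes tested. Il12rb1, the partner chain of Il12rb2 in the interleukin 12 receptor, was at 45.0 and 50.03 FPKM in cKO 2 and cKO 4 against 19.2 and 23.1 FPKM in Het 1 and Het 3 at 72 h. The groups did not overlap, which held in this direction for 24.9% of all genes tested. The fit gave 1.13 ± 0.13 for Il12rb1 (log2, SE, limma adjusted p = 0.112). Il18rap, a subunit of the interleukin 18 receptor, went the other way, at 5.10 and 8.51 FPKM in cKO 2 and cKO 4 against 16.2 and 24.8 FPKM in Het 1 and Het 3 (log2 fold change -1.47 ± 0.13, SE, limma adjusted p = 0.106). Gadd45g, which links interleukins 12 and 18 to p38 kinase signalling, was at -1.35 ± 0.18 (log2, SE).

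In the interferon gamma arm, 7 of 10 listed genes had enough signal to be tested, and 2 were higher and 1 lower at an unadjusted p under 0.05, against 10.3% and 6.99% of all genes. Irf1, a transcription factor induced early by interferon gamma, was at 237 and 252 FPKM in cKO 2 and cKO 4 against 67.7 and 123 FPKM in Het 1 and Het 3 (log2 fold change 1.41 ± 0.23, SE, limma adjusted p = 0.141). Socs3, an inhibitor of cytokine receptor signalling, stood at -1.16 ± 0.20 (log2, SE, limma adjusted p = 0.152). The CXCR3 ligands Cxcl9, Cxcl10 and Cxcl11 were under the minimum of 1 FPKM on average and were not tested.

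Of 8 tested cofactors of T-bet and other Th1 factors, 2 lay above 0 and 6 below, against 61% and 39% of all genes. At an unadjusted p under 0.05, 1 was higher and 2 were lower, against 10.3% and 6.99% of all genes, with a median log2 fold change of -0.11. Bhlhe40, a factor that promotes Ifng, was at 120 and 61.8 FPKM in cKO 2 and cKO 4 against 158 and 115 FPKM in Het 1 and Het 3, where the groups overlapped. Runx1 stood at -0.42 ± 0.13 and Hopx, a homeodomain-only protein, at 0.61 ± 0.16 (log2, SE).

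Of the other Th1 cytokines and chemokines, 4 of 8 were tested, and 1 was higher and 0 lower at an unadjusted p under 0.05, against 10.3% and 6.99% of all genes. Lta, which encodes lymphotoxin alpha, was at 198 and 231 FPKM in cKO 2 and cKO 4 against 147 and 116 FPKM in Het 1 and Het 3 at 72 h (log2 fold change 0.70 ± 0.19, SE, limma adjusted p = 0.225). The chemokine Xcl1 was at 9.37 FPKM in cKO 2 and 0.457 FPKM in Het 1 and listed at 0 in cKO 4 and Het 3. Il10, an inhibitory cytokine, was at 6.11 and 30.3 FPKM in cKO 2 and cKO 4 against 7.77 and 7.47 FPKM in Het 1 and Het 3, so only cKO 4 stood apart. Il2 was at most 0.806 FPKM in any library.

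Among 8 tested surface proteins of Th1 cells, 2 were higher and 0 lower at an unadjusted p under 0.05, against 10.3% and 6.99% of all genes, with a median log2 fold change of 0.40. Fasl, the death ligand of effector T cells, was at 7.86 and 4.51 FPKM in cKO 2 and cKO 4 against 1.79 and 1.19 FPKM in Het 1 and Het 3 at 72 h. Its log2 fold change was 1.5 ± 0.20 (SE, limma adjusted p = 0.121). Slamf7 stood at 0.67 ± 0.20 and the chemokine receptor Cxcr6 at 0.83 ± 0.42 (log2, SE). Of 5 factors of other T cell lineages, Gata3, the Th2 factor that is also expressed in regulatory T cells, was at 209 and 157 FPKM in cKO 2 and cKO 4 against 115 and 121 FPKM in Het 1 and Het 3 (0.62 ± 0.17, log2, SE, limma adjusted p = 0.233). Bcl6, the factor of follicular helper cells, stood at -0.42 ± 0.21 (log2, SE).

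**Figure D5:**
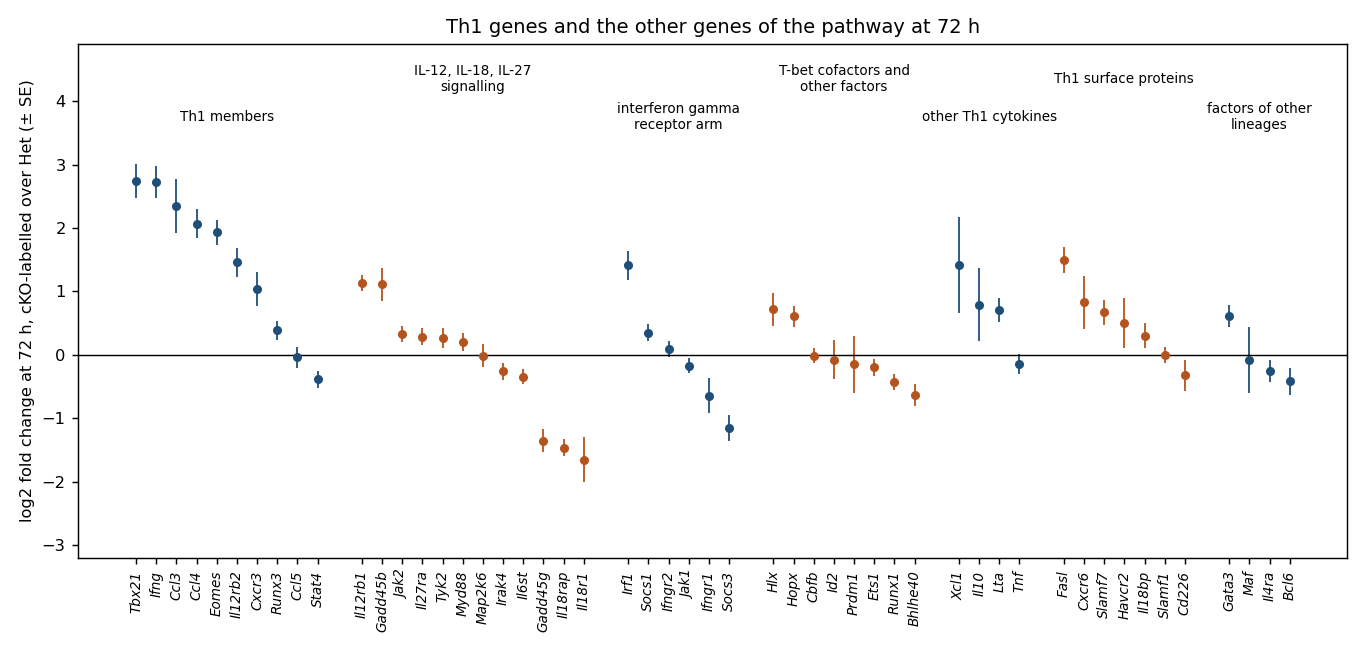
Log2 fold change at 72 h of libraries labelled cKO over Het (vertical axis, FPKM + 1, bars ± SE of the limma fit, 2 libraries per genotype) for the 10 Th1 genes and tested genes of 6 further lists, sorted within each list. The Th1 genes span -0.39 to 2.74, and in the interleukin receptor list Il12rb1 lies above and Il18rap below 0.

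Genes with the pattern most like Tbx21 and Ifng were sought over the 6 libraries, with log2(FPKM + 1) centred within each table, among the 8850 genes averaging 5 FPKM or more. Nearest to Tbx21 were mt-Tp, Notch1, Birc2, Slc39a14 and Traj13, with Pearson r of 0.997 to 0.998. Nearest to Ifng were Sh3bp2, Smyd3, Birc2, Notch1 and Tbx21 itself, likewise with r of 0.997 to 0.998. Notch1, a receptor of T cell differentiation, was at 253 and 317 FPKM in cKO 2 and cKO 4 against 167 and 234 FPKM in Het 1 and Het 3 at 72 h, a much smaller difference than that of Tbx21. Birc2, an inhibitor of apoptosis, was at 49.7 and 58.6 FPKM in cKO 2 and cKO 4 against 36.5 and 45.2 FPKM in Het 1 and Het 3. Of the other Th1 genes, r with Tbx21 was 0.94 for Il12rb2, 0.90 for Ccl4, 0.89 for Eomes, 0.80 for Ccl3, 0.80 for Cxcr3, 0.76 for Runx3, 0.16 for Ccl5 and -0.18 for Stat4. These values describe 6 points that share libraries and depth. Centring makes cKO 4 and Het 3 mirror each other, so fewer than 6 values are free. The nearest genes were picked as the highest of 8850, so their r gives no separate support.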

How the data were processed

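RNA sequencing values were analysed from the FPKM that the authors deposited in 2 tables, which shared 47347 rows, 47069 of them with an Ensembl gene ID. Build mm9, HTSeq 0.6.1, TopHat2 2.0.12 and Bowtie2 2.2.3 were used per the submitters' processing notes, and no role, annotation or strandedness option is stated there. RNA was amplified with a SMART-Seq v4 kit per the labels' protocols. Symbols came from GENCODE M21, of another build than mm9, and 581 IDs had none. A further 278 rows carry no gene ID and were dropped.

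FPKM are not counts. Fragments per library were estimated as the number that makes the values of genes with a single annotated transcript whole multiples of 1 fragment. This held within 0.02 fragments for 95.8% to 96.3% of low values, and over all genes, with mean transcript lengths, for 85.4% to 86.4%, against 3.68% to 4.33% with lengths scrambled. For Ifng, Il12rb2 and Stat4 the length of a single annotated transcript gave values closest to whole. Values of Stat4 and Il12rb2 were still off by up to 0.483 and 0.377 fragments. Of 60 values of the Th1 genes, 41 lay within 0.02 of a whole fragment. Fragments were used for exact Poisson intervals (95%), which cover counting error only.

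The scale for testing was log2(FPKM + 1), on which changes of low genes come out too small, using limma 3.58.1 in R 4.3.3 (variance trend, Benjamini-Hochberg over genes averaging 1 FPKM or more). Genotype at 72 h had the table as a term, the fit over both times also had time, and the interaction of genotype and time had its own fit. Scripts were tested on simulated data. The replicate numbers 1 and 2 recur at 48 h and 72 h, and a block for them was an alternative. The members and lists were chosen with earlier results of these data known. Named genes were all members, up to 3 tested genes a list with the smallest p at 72 h, and the 5 genes most like Tbx21 and Ifng. Some listed genes are not reported here, by name or in the plot of the lists, but count in the totals of their lists. Values named outside this rule were Serbp1, Il2, the CXCR3 ligands and single markers at 0. Counts within single 72 h pairs were added after seeing the data. Python 3.11.15, pandas 2.3.3, numpy 2.4.6 and matplotlib 3.10.9 were used. Alternatives are given in the closing section.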

Additional observations from a re-analysis of the deposited data

Results flagged for a closer look

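For 4 Th1 genes the genotype difference had opposite directions at 72 h, in both pairs, and at 48 h, in its single pair. The interaction of genotype and time was 2.82 for Tbx21, 1.80 for Il12rb2, 0.40 for Runx3 and -1.44 for Ccl5 (log2). With limma, the adjusted p of this interaction ran from 0.742 to 0.856 for these genes, so none passed. Each genotype had a single 48 h library, so the errors of this interaction hold no measured spread at 48 h. At 48 h the Runx3 and Tbx21 differences were -0.01 and -0.08 (log2), close to 0. The Ccl5 differences were likewise close to 0 at 72 h, at -0.06 for cKO 2 and Het 1 and -0.02 for cKO 4 and Het 3. The Runx3 interaction spanned 0.233 to 0.571 when each 72 h library was left out.

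For Ifng, Ccl3 and Ccl4, the library labelled cKO and the Het library of the first table went opposite ways between 72 h and 48 h. Their interactions were 2.55 for Ifng, 0.87 for Ccl3 and 1.35 for Ccl4 (log2), with limma adjusted p of 0.744, 0.864 and 0.821. For Ifng in Het 1 the exact 95% Poisson intervals overlapped, at 0.111 to 0.571 FPKM at 72 h and 0.374 to 0.923 FPKM at 48 h. The Ccl3 interaction was 0.114 without cKO 2 or Het 1 of 72 h and 1.62 without cKO 4 or Het 3. The cKO library in question, replicate 2, is the one with myeloid markers at both times, and the part of these in the values was not tested.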

How the results depend on the processing

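No Th1 gene passed limma's adjusted p of 0.05 in any of 452 tests over all settings. With no filter on low values, 8 genes passed at 72 h. Leaving out each library in turn, 0 to 7 genes passed over both times, the 7 without cKO 4 or without Het 3. For time, 3 genes passed, 1 with a pseudocount of 5, 0 with no filter on low values, 0 with the replicate number as a block, and 0 to 4 when each library was left out (0 without either 48 h library, 1 without Het 1 at 72 h). The 48 h groups hold 1 library each, and whether the numbers pair the samples was not tested. Myeloid markers summed to 308 FPKM at 48 h and 248 FPKM at 72 h in cKO 2. In Het 1 they summed to 0.538 FPKM at 48 h and 1.18 FPKM at 72 h. At 48 h, 237 genes differed at least 2-fold, 467 with a pseudocount of 0.1 and 58 with a pseudocount of 5.

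Over the other settings, the 72 h log2 fold change was 1.81 to 3.16 for Tbx21 and 1.32 to 4.03 for Ifng. Directions of Th1 genes turned in the fits over both times and for time only. For time, Ccl3 was 0.0788 with a pseudocount of 5 and Ccl4 was -0.0196 with a pseudocount of 0.1 (log2). Leaving out single libraries gave time differences of -0.19 to 2.63 for Tbx21, -0.16 to 2.39 for Ifng, -0.93 to 0.64 for Ccl3, -0.60 to 0.75 for Ccl4 and -0.11 to 1.33 for Ccl5, and -0.0396 to 0.69 for Ccl5 over both times. Over both times they also gave 1.1 to 2.74 for Tbx21, 1.28 to 2.72 for Ifng, 0.383 to 1.46 for Il12rb2, 0.52 to 1.04 for Cxcr3 and 0.103 to 0.388 for Runx3, lowest without cKO 2 or Het 1 of 72 h for Tbx21 and Ifng. The cause was not tested. At 72 h, leaving out a library leaves the other pair alone, with no test, and no direction turned.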

Other observations

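Of 5 cytotoxic genes shared by CD8 T and NK cells, 4 were tested at 72 h, and 3 of these, Gzma, Nkg7 and Gzmb, were higher in the libraries labelled cKO at an unadjusted p under 0.05, against 10.3% of all genes. Gzmb and Prf1 overlapped between the groups, and Gzmk was too low to be tested. Nkg7, a granule membrane protein, was at 148 and 89.1 FPKM in cKO 2 and cKO 4 against 29.1 and 6.48 FPKM in Het 1 and Het 3. Gzma was at 74.9 and 22.8 FPKM in cKO 2 and cKO 4 against 14.0 and 1.92 FPKM in Het 1 and Het 3. For Nkg7 and Gzma the libraries labelled cKO lay above both Het libraries, as for 24.9% of all genes tested. Cd40lg, a ligand of activated helper T cells, was at 12.6 and 7.29 FPKM in cKO 2 and cKO 4 against 2.68 and 2.50 FPKM in Het 1 and Het 3 at 72 h, and at 9.37 FPKM in cKO 2 against 11.1 FPKM in Het 1 at 48 h. Summed NK and CD8 markers, given above, were also highest in cKO 2 at 72 h, and their part in these values was not tested. These genes were named after their values were seen.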
